A study of Saccharomyces cerevisiae with 2 samples.

Results

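The 10 genes described here let the budding yeast Saccharomyces cerevisiae capture iron from siderophores. They were taken by name: every gene spot whose gene or systematic name is FIT1, FIT2, FIT3, ARN1, ARN2, YEL065W (SIT1), YOL158C (ENB1), FRE2, FRE3 or FRE4. All 10 were found, in 18 of the 10263 gene spots on each array, among 6256 genes in all. The study compared RNA of a wild-type strain with RNA of a strain lacking YDR374C, both in the haploid laboratory background BY4741 and both grown in SD, a synthetic minimal medium, and harvested in mid-exponential growth at an OD600 of 0.7. YDR374C is PHO92, which encodes an RNA-binding protein with a YTH domain. On each of 2 arrays on 1 slide, wild-type RNA carried the green dye Cy3 and the RNA labelled as deletion carried the red dye Cy5, without a dye swap, so a fixed effect of the dyes on a probe cannot be told apart from an effect of the strain. The labels do not state whether the 2 arrays hold separate cultures or whether the deletion strain is 1 clone. Every error below, and every p-value except the scanner software's, thus comes from 2 arrays that may be technical repeats. These errors also draw on the spread between arrays pooled over all genes (prior df 13.2). For the 10 genes they lay between 0.035 and 0.040. The scanner software's p-values belong to a spot on an array and measure no variation between arrays.

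Siderophores are small iron-binding molecules that microbes secrete to collect ferric iron. Baker's yeast makes none of its own but takes up those of other microbes. Fit mannoproteins in the cell wall hold iron-loaded siderophores near the cell, Arn transporters carry intact complexes inward, and Fre reductases at the cell surface release the iron by reducing it. The transcription factor Aft1, with its relative Aft2, turns these genes on when iron is scarce, together with the genes of the reductive uptake route.

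Over the 5641 genes tested, array 1 and array 2 gave log2 ratios with a correlation of 0.958 (Pearson, across genes, which are not independent replicates) and a median near 0. The median gene spot had a mean signal, before background correction, between 1597 and 3105 per channel and array. This is not the measure of the dye-normalised spot signals given below. The probe of the deleted gene did not lose its signal in the RNA labelled as deletion. Its spot that was well above background is given in the scanner software's dye-normalised signals. It read 271 for wild type against 223 for the RNA labelled as deletion on array 1, and 247 against 238 on array 2. The probe's other spot stayed near background throughout. Both spots entered limma's fit. Their log2 ratios on arrays 1 and 2 were -0.24 and -0.04 for the spot well above background, and -0.24 and -0.39 for the other. PHO92 was lower by limma's fit, at -0.23 ± 0.03 on the log2 scale (SE, n = 2, adjusted p = 2.74e-05), a call that was lost with the scanner software's log ratios (adjusted p = 0.0879) and with the series table (0.0813). The position of the probe within the gene is not used here, so this value does not settle the labels, and the direction of every value below rests on the stated dyes. Among the auxotrophic markers of BY4741, LEU2 and MET17 were not well above background in any spot, whereas URA3, which this background also lacks, was, and was called higher at 0.33 ± 0.04 (0.50 with the scanner software's log ratios). HIS3, which BY4741 lacks in part, was also well above background and was not called (-0.03 ± 0.04). The strain is labelled as BY4741, a MATa strain, and all 6 MATa-specific genes listed were well above background in every spot and channel, as were MF(ALPHA)2 and SAG1 of the 4 MATalpha-specific genes. Of the MATa genes 2 were called higher and 3 lower, with STE6, the a-factor exporter, at -0.62 (-0.41 after median centring). Over all genes 36.4% were called higher and 36.7% lower. Of the MATalpha genes MF(ALPHA)2 was called lower (-0.08), but not with the scanner software's log ratios (adjusted p = 0.0536) or the series table (0.0766), and STE3 was called lower with only 1 of its 4 red spot values well above background.

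Siderophore uptake genes differed in both directions. In the RNA labelled as deletion 7 of the 10 were higher (ARN2, FIT2, ENB1, FRE3, ARN1, FIT3 and FRE2), 2 were lower (SIT1 and FRE4), and FIT1 did not pass the test, which was limma's moderated test of the log2 ratio, deletion over wild type, against 0 at a Benjamini-Hochberg adjusted p of 0.05 over all 5641 genes. At this limit 36.4% of all genes were called higher and 36.7% lower, so a call alone is common on these arrays. The median log2 ratio of the 10 genes was 0.29, with 0.32 on array 1 and 0.24 on array 2. Their means ranged from -0.30 to 0.68. All 10 kept 1 sign on both arrays, as did 89.6% of all tested genes. Called with an absolute log2 ratio of at least 0.5, a limit chosen after seeing the data, were 4.13% of all genes on the higher side and 3.88% on the lower side. ARN2 was the only member among them.

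**Figure D1:**
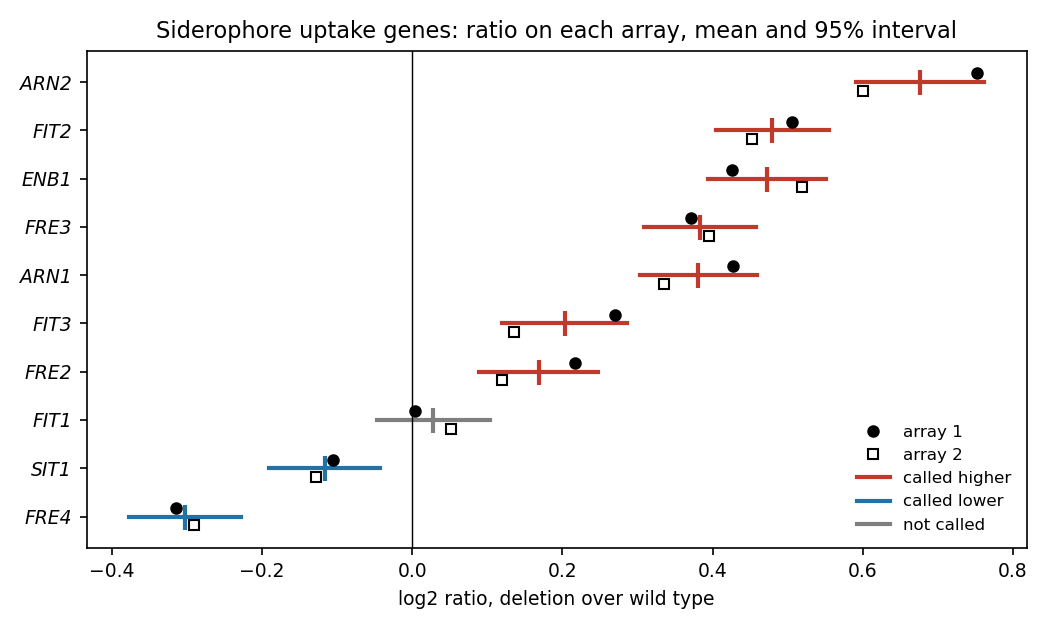
Log2 ratio, RNA labelled as deletion over wild type, of the 10 siderophore uptake genes; filled circles are array 1, open squares array 2, the tick is their mean and the bar the 95% interval of limma's fit. ARN2 stands highest with a mean of 0.68, and FIT1 is the gene whose interval includes 0.

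The ARN genes encode the transporters, each known for a different siderophore, and they spread most widely. ARN2, which takes up triacetylfusarinine, lies in 2 spots. In the scanner software's dye-normalised signals these read 1462 and 1139 for wild type on array 1 and 2426 and 1987 for the RNA labelled as deletion. On array 2 they read 1122 and 1021 for wild type and 1818 and 1506 for the RNA labelled as deletion. On each array both deletion values lay above both wild-type values. The log2 ratio after loess normalisation was 0.75 on array 1 and 0.60 on array 2, with a mean of 0.68 ± 0.04 (SE, n = 2, 1.60-fold, 95% interval 1.51 to 1.69, limma adjusted p = 2.03e-09). Only 58 of the 5641 tested genes had a higher ratio.

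ENB1 (YOL158C), the transporter of enterobactin, a siderophore of enteric bacteria, came next among the transporters. Its spots read 570 and 1290 for wild type on array 1 against 682 and 1997 for the RNA labelled as deletion. On array 2 they read 1009 and 808 against 1430 and 1218. The RNA labelled as deletion was brighter in each spot, but the sizes differed between spots on array 1, where the log2 ratios were 0.24 and 0.61. On array 2 they were 0.49 and 0.55. The first of these spots lay on array 1 in a region where the 104 surrounding gene spots had a median log2 ratio of -0.15, against -0.07 around the second, and the part of this in the difference was not tested. The mean over both arrays was 0.47 ± 0.04 (SE, n = 2, 1.39-fold, limma adjusted p = 2.95e-08), from 0.43 on array 1 and 0.52 on array 2.

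ARN1, which transports ferrichromes, had green signals of 1429 and 812 and red signals of 1840 and 1170 on array 1. On array 2 it had 1001 and 838 in green and 1319 and 1037 in red. The ratio held in every spot, with log2 values from 0.29 to 0.50. The mean was 0.38 ± 0.04 (SE, n = 2, 1.30-fold, limma adjusted p = 2.77e-07).

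SIT1 (YEL065W), the transporter of ferrioxamines, went the other way. Its wild-type signals were 1667 and 1933 on array 1 and 2607 and 2731 on array 2, against 1573, 1742, 2430 and 2406 for the RNA labelled as deletion in the same order. The deletion value was the lower of the pair in all 4, by small amounts. Its log2 ratio was -0.11 on array 1 and -0.13 on array 2, with a mean of -0.12 ± 0.03 (SE, n = 2, 0.922-fold, limma adjusted p = 0.00715). In the order of the ratios ARN2 stood above ENB1, by 0.33 on array 1 and 0.08 on array 2, and their 95% intervals did not overlap. The intervals of ENB1 and ARN1 did overlap, and the arrays disagreed on their order, with ENB1 minus ARN1 at -0.00 and 0.18. ARN2 exceeded SIT1 by 0.86 on array 1 and 0.73 on array 2, the widest gap within the family.

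**Figure D2:**
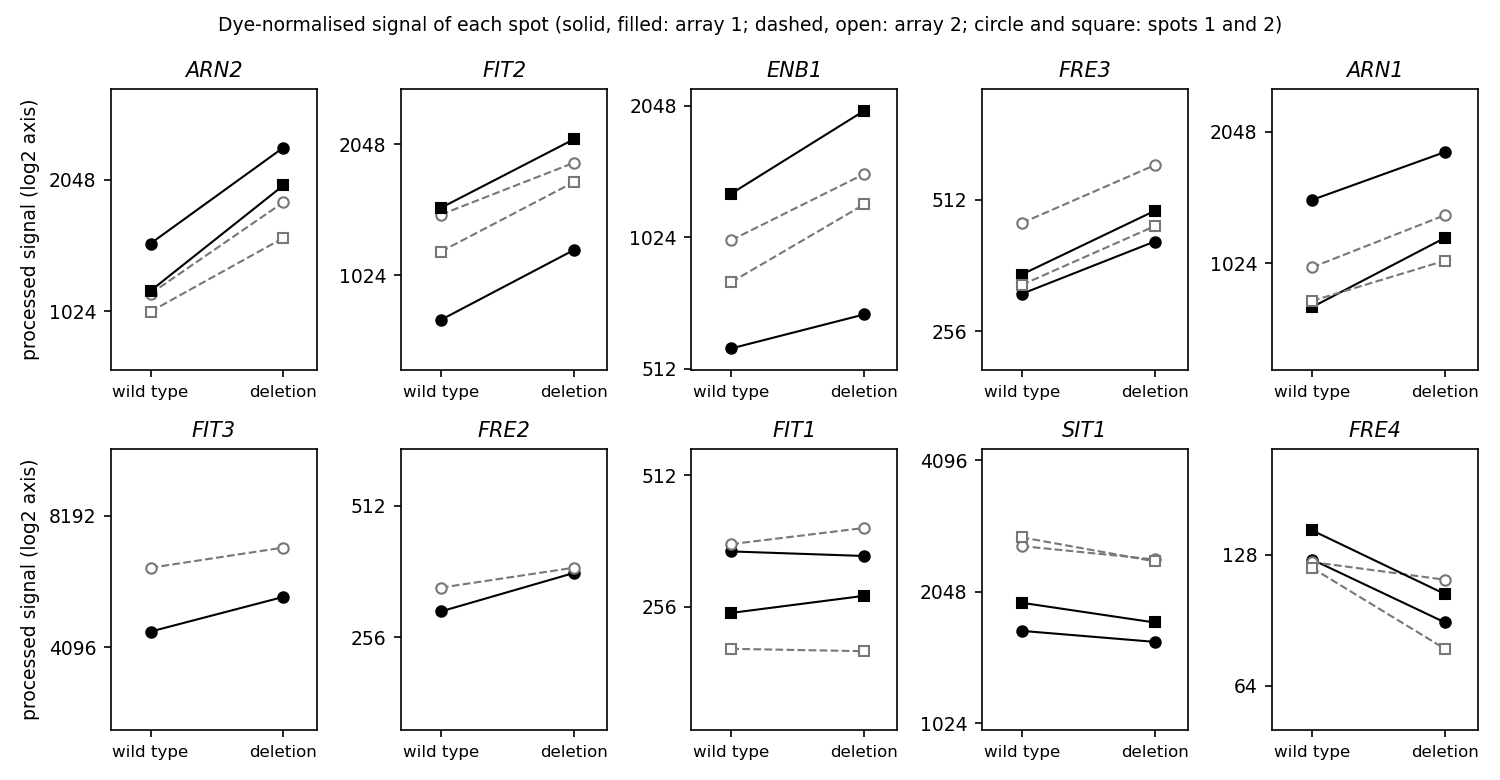
Scanner software's dye-normalised signal (log2 axis, a separate range per gene) of each spot in wild type and in the RNA labelled as deletion; each line joins the channels of 1 spot on 1 array. Lines rise in every spot of ARN2, FIT2, ENB1, FRE3, ARN1, FIT3 and FRE2, fall in every spot of SIT1 and FRE4, and run both ways for FIT1.

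The FIT genes encode mannoproteins of the cell wall that are anchored by glycosylphosphatidylinositol. FIT2 read 810 and 1463 for wild type on array 1 against 1171 and 2100 for the RNA labelled as deletion. On array 2 the values were 1411 and 1161 against 1855 and 1675. Both of its spots rose on both arrays, with log2 ratios between 0.40 and 0.51. The mean was 0.48 ± 0.04 (SE, n = 2, 1.39-fold, limma adjusted p = 1.65e-08), and 259 of the tested genes had a higher ratio.

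FIT3, whose gene lies directly beside FIT2, has 1 spot. It read 4447 against 5340 on array 1 and 6228 against 6928 on array 2, wild type first. The log2 ratio was 0.27 on array 1 and 0.14 on array 2. The mean was 0.20 ± 0.04 (SE, n = 2, 1.15-fold, limma adjusted p = 0.000262). With each array's ratios centred on their median in place of loess, FIT3 had 0.37.

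FIT1 lies on another chromosome and did not differ detectably. Its spots read 343 and 248 for wild type and 335 and 271 for the RNA labelled as deletion on array 1. On array 2 they read 356 and 205 against 388 and 202. The spots ran in opposite directions on each array, with log2 ratios of -0.05 and 0.06 on array 1 and 0.11 and -0.01 on array 2. The mean was 0.03 ± 0.04 (SE, n = 2, limma adjusted p = 0.482), with a 95% interval from -0.05 to 0.10. It turned to -0.03 after median centring, also without passing the test. FIT2 stood above FIT1 by 0.50 and 0.40 on arrays 1 and 2, and above FIT3 by 0.24 and 0.32. FIT3 stood above FIT1 by 0.27 and 0.08. With loess normalisation none of the 3 intervals overlapped another. After median centring FIT2 had 0.46 and FIT3 0.37, a smaller gap.

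The FRE members are reductases of the cell surface. FRE3, which reduces iron bound to several siderophores, read 312 and 345 for wild type against 411 and 483 for the RNA labelled as deletion on array 1. On array 2 it read 453 and 327 against 615 and 446. Its 4 log2 ratios lay close together, from 0.34 to 0.41. The mean was 0.38 ± 0.03 (SE, n = 2, 1.30-fold, limma adjusted p = 1.45e-07), the same size as that of ARN1.

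FRE2, a ferric and cupric reductase with 1 spot, read 293 against 359 on array 1 and 332 against 369 on array 2. Its log2 ratios of 0.22 and 0.12 averaged 0.17 ± 0.04 (SE, n = 2, 1.12-fold, limma adjusted p = 0.000812). The value was 0.11 after median centring, with the call kept.

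FRE4, a reductase known for acting on rhodotorulate siderophores, had the lowest ratio of the members. It read 125 and 145 for wild type against 89.5 and 104 for the RNA labelled as deletion on array 1. On array 2 the values were 123 and 119 against 112 and 77.9. All 4 pairs fell, although the array 2 spots differed in size, with log2 ratios of -0.15 and -0.43. The mean was -0.30 ± 0.03 (SE, n = 2, 0.811-fold, limma adjusted p = 1.71e-06). FRE3 stood above FRE4 by 0.69 on both arrays, and FRE3 above FRE2 by 0.15 and 0.28. The absolute ratios of FRE4, FIT3, FRE2 and SIT1 were smaller than the 0.33 measured for URA3, a gene that the strain background lacks. With the scanner software's log ratios URA3 had 0.50, and of all members only ARN2 (0.70) exceeded it, with FIT2 at 0.49, ENB1 at 0.50, FRE3 at 0.44 and ARN1 at 0.40. This order depended on the setting. With the series table URA3 had 0.43, and ARN2 (0.71), ENB1 (0.54), FIT2 (0.50) and FRE3 (0.44) exceeded it. After median centring URA3 had 0.27, and FIT3 (0.37) and FRE4 (-0.37) also had larger absolute ratios.

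The scanner software's own p-value for the ratio of each spot, as deposited, gave a stricter reading. Every usable spot on both arrays had p under 0.01 with 1 sign for 2.55% of all genes on the higher side and 2.52% on the lower side. ARN2 was the only siderophore uptake gene that met this rule, which was added after seeing the data, with spot p-values of 0.000681, 0.000221, 0.00116 and 0.00793. For ENB1 the p of the second spot was 0.00300 on array 1 and 0.00536 on array 2, and that of the first was 0.215 and 0.0165. FIT2 had values from 0.0118 to 0.0576 and FRE3 from 0.0249 to 0.0661. Of the members called lower, FRE4 had values from 0.0600 to 0.644 and SIT1 from 0.372 to 0.683. All 18 spots passed the scanner's background test in green and red alike, none was saturated, and none was marked as an outlier. Around the spots the surrounding 72 to 116 gene spots, within 5 rows and 5 columns each way, had median log2 ratios from -0.15 to 0.11.

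**Figure D3:**
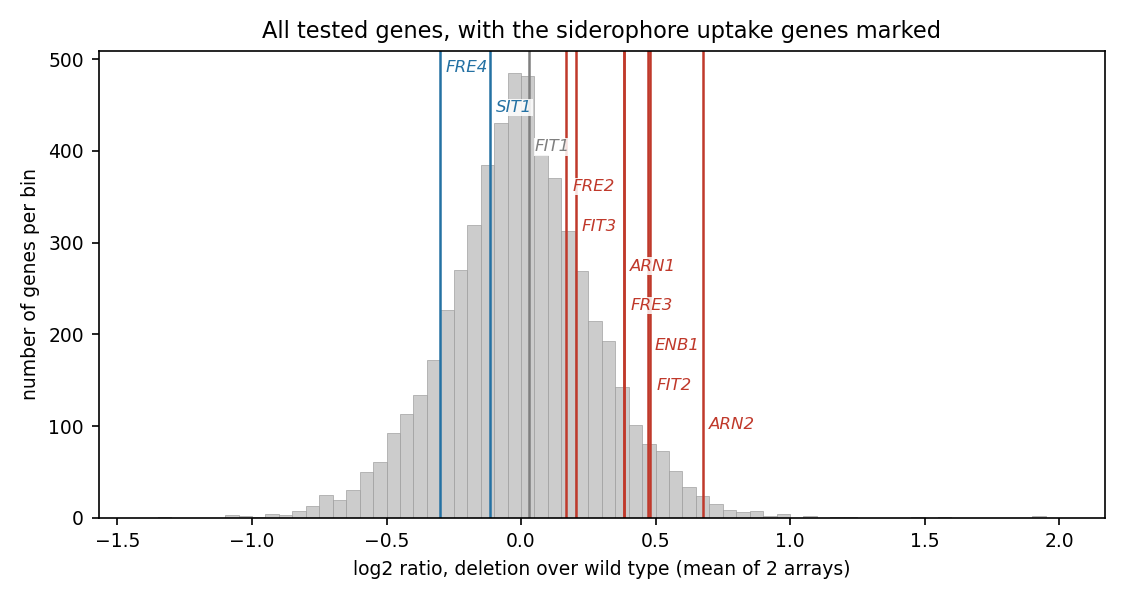
Histogram of the log2 ratio (deletion over wild type, mean of both arrays) of all 5641 tested genes, with lines at the 10 siderophore uptake genes in red (called higher), blue (called lower) and grey (not called). ARN2 lies in the upper tail, FIT2, ENB1, FRE3 and ARN1 on the upper flank, and SIT1 and FRE4 below the centre.

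Within the distribution over all genes, 99.0% of tested genes had a lower ratio than ARN2, 95.4% a lower one than FIT2 and 95.1% than ENB1. For FRE3 and ARN1 these shares were 92.0% and 91.8%. FIT3 and FRE2 lay at 78.5% and 74.6%, FIT1 at 55.3%, SIT1 at 32.1% and FRE4 at 12.7%.

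All 10 genes lie near chromosome ends, between the 4th gene (FRE2, chromosome XI) and the 19th (FRE4, chromosome XIV) from the nearest end in the gene order of the RefSeq table. ARN2 and ARN1 share the left end of chromosome VIII, as the 5th and 12th genes. FIT3, FIT2 and FRE3 lie together as the 13th, 14th and 16th genes from the right end of chromosome XV, and ENB1 as the 11th from its left end. FIT1 (chromosome IV) and SIT1 (chromosome V) lie 8th and 13th from theirs. Of 524 other tested genes among the outermost 20 at each end, 204 were called higher (38.9%) and 180 lower (34.4%), with a median log2 ratio of 0.02, close to the shares over all genes.

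The genes next to the members went both ways. The 2 nearest tested genes on each side gave 32 genes that are not members, of which 12 were called higher, 12 lower and 8 not called, with a median of 0.01. These shares of 37.5% each way were close to the 36.4% and 36.7% over all genes. COS8, of a family of membrane proteins encoded near chromosome ends, directly precedes ARN2 and was higher by 0.73 ± 0.04 (limma adjusted p = 7.49e-10), slightly more than ARN2 itself. The next measured gene on that side, YHL049C, was also higher (0.40), while PAU13 and DFP4 on the other side had 0.03 and 0.05 and were not called. HPA3, an acetyltransferase beside SIT1, was lower by more than SIT1, with a log2 ratio of -0.53 ± 0.04 (limma adjusted p = 1.02e-08). On the right end of chromosome XV, the tested genes FRE3, FIT2, FIT3, FRE5 and PHR1, a DNA photolyase gene, follow each other and were each called higher, with 0.38, 0.48, 0.20, 0.23 and 0.20, and RDR1, the transcription factor gene on its inner side, was lower (-0.32 ± 0.03). The array itself places the FIT3 spot and 1 spot each of FIT2 and FRE3 side by side in row 18, where the surrounding median lay between -0.07 and -0.04. The second spots of FIT2 and FRE3, elsewhere on the array, gave log2 ratios of 0.51 and 0.51, and of 0.40 and 0.38, on arrays 1 and 2.

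**Figure D4:**
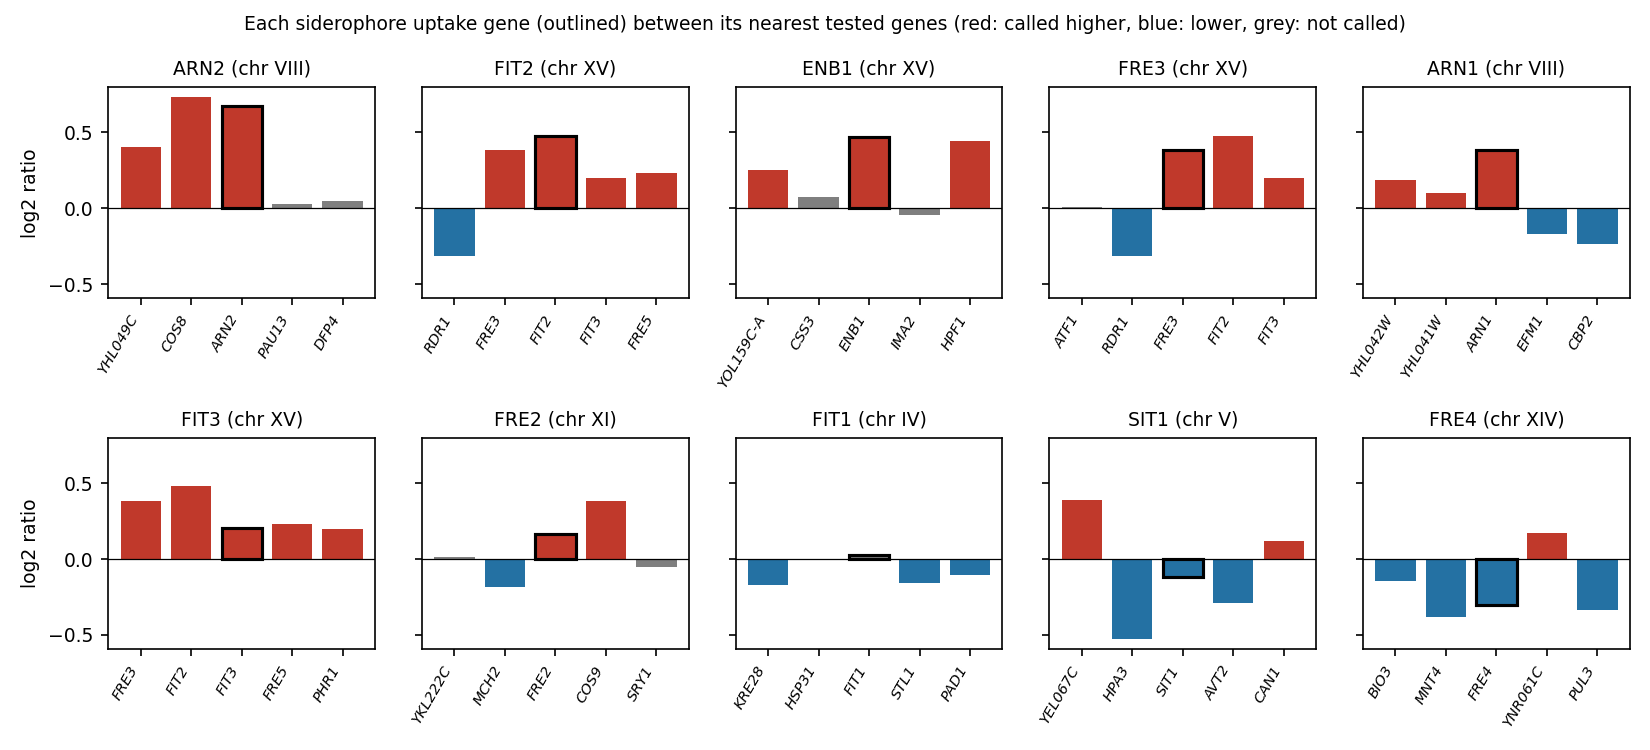
Log2 ratio (bars from 0) of each siderophore uptake gene, outlined in black, and of the nearest 2 tested genes on each side in gene order; red bars were called higher, blue lower and grey not called. COS8 beside ARN2 (0.73) and HPA3 beside SIT1 (-0.53) are the neighbours past an absolute log2 ratio of 0.5.

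Other genes of the low-iron regulon also went both ways. Of 24 listed genes 23 are on the array and 21 were tested. Of these 10 were called higher and 3 lower, beside 36.4% and 36.7% of all genes. The median log2 ratio of the list was 0.08, against 0.29 for the siderophore uptake genes and -0.00 over all genes. The difference between the lists was not tested, and the lists were chosen with earlier results of these data known. The largest called values belonged to PCL5, a cyclin of the kinase Pho85 that acts on Gcn4 (-0.42 ± 0.04), CCC2, the copper pump that loads the ferroxidase Fet3 (0.32 ± 0.03), AKR1, a palmitoyl transferase (0.32 ± 0.04), and COT1, a vacuolar metal transporter (0.27 ± 0.04). Named after their values were seen, FET3 and FTR1, the ferroxidase and permease of reductive uptake, had 0.03 ± 0.03 and -0.06 ± 0.03 and were not called (limma adjusted p = 0.508 and 0.147). TIS11 (CTH2), which marks mRNAs of iron-using proteins for decay when iron is low, also named after its value was seen, was higher by 0.26 ± 0.03. CTH1 of the same list went the other way, with -0.24 ± 0.03, and was called lower. Among the other reductase relatives, of which FRE1, FRE5 and FRE6 are also in the regulon list, FRE7, a cupric reductase gene, was lower (-0.35 ± 0.04), FRE5 (0.23 ± 0.04) and AIM14 (0.20 ± 0.03) were higher, FRE8 was lower (-0.10 ± 0.03, and -0.16 after median centring), and FRE1 was not tested because of outlier spots.

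The regulators went both ways. AFT1, listed on the array under its older name RCS1, was lower, with log2 ratios of -0.11 and -0.23 on arrays 1 and 2 and a mean of -0.17 ± 0.04 (SE, n = 2, limma adjusted p = 0.000975). AFT2 had 0.06 and 0.13, with a mean of 0.09 ± 0.04 (limma adjusted p = 0.0280), and this call was lost after median centring (0.04, adjusted p = 0.351). MSN5, the nuclear export receptor that carries Aft1 out of the nucleus, was higher by 0.47 ± 0.04, and FRA1, of the complex that passes the iron signal to Aft1, by 0.25 ± 0.03. GRX4, a glutaredoxin of the same pathway, was called higher at 0.17 ± 0.04, from 0.09 on array 1 and 0.26 on array 2, with 2 green and 1 red of its 4 spot values well above background. Median centring put GRX4 at 0.09 and ended its call (adjusted p = 0.0731), and the scanner software's log ratios put it at 0.40. In total 4 of the 9 regulators were called higher and 1 lower, with a median of 0.05. Over all genes the shares were 36.4% higher and 36.7% lower.

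Genes tied to high iron and iron-using enzymes were described for comparison. Of 6 listed genes of the high-iron response 5 were tested, with 3 higher, GRX4 among them, and 1 lower. CUP1-1 and CUP1-2, copies of the metallothionein gene that their probes may not tell apart, had 0.38 and 0.37, and 0.64 and 0.62 after median centring. TYW1, a tRNA-modifying enzyme with an iron-sulphur cluster, was lower (-0.15 ± 0.04). Of 15 iron-sulphur and haem enzymes 12 were tested, of which 7 were lower and 1 higher, with a median of -0.11. For both lists, the shares over all genes were 36.4% higher and 36.7% lower, and no difference from them was tested. ILV3 and LEU1 of branched-chain amino acid synthesis had -0.62 ± 0.03 and -0.23 ± 0.03, cytochrome c (CYC1) had -0.50 ± 0.04 and aconitase (ACO1) had -0.24 ± 0.04. The 3 untested enzymes were left out because of outlier spots, and with those spots kept 4 genes of the list were called higher.

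**Figure D5:**
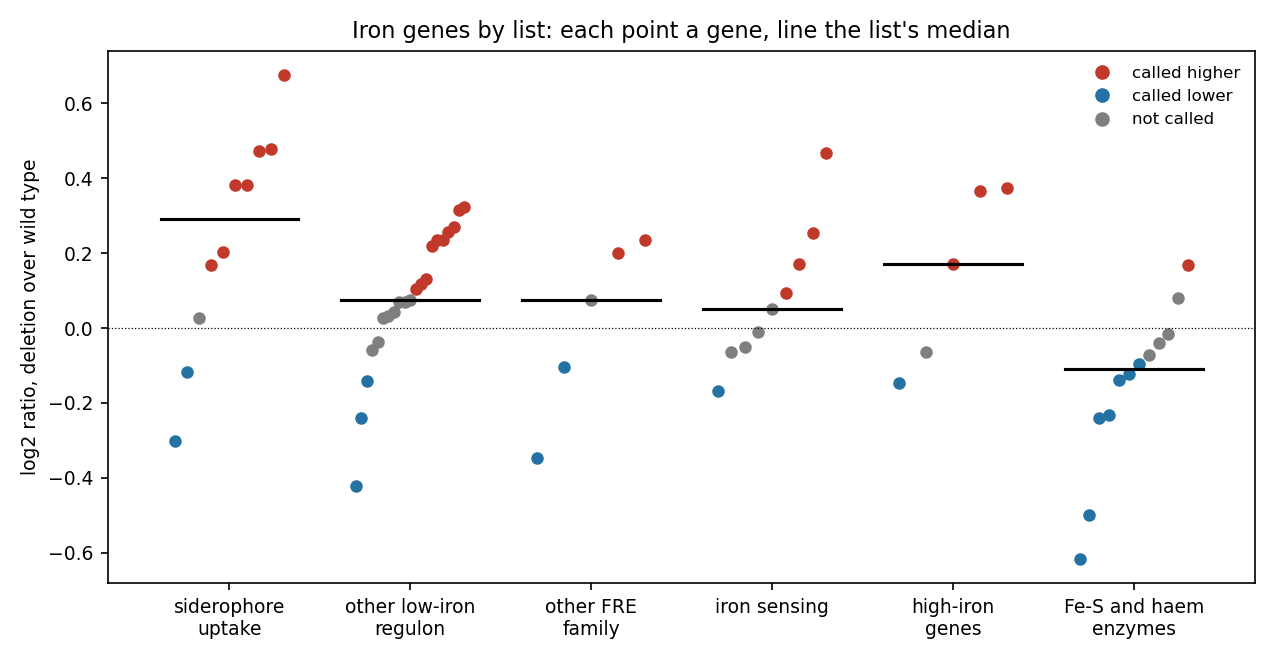
Log2 ratio (deletion over wild type, mean of both arrays) of every tested gene in 6 lists of iron genes; red points were called higher, blue lower, grey not called, and the black line is the list's median. The medians run from 0.29 for the siderophore uptake genes to -0.11 for the iron-sulphur and haem enzymes.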

How the data were processed

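The deposited scanner files hold intensity values per spot for both channels, written by Agilent Feature Extraction, whose version is 9.5.3.1 per the file headers and 9.3.2.1 in the submitters' processing notes. They also hold a log10 ratio after LOWESS dye normalisation and its p-value per spot, per the file headers. The deposited series table holds log2 values of the authors; set against the scanner ratios it ran red over green (slopes 0.984 and 0.986, medians -0.00491 and -0.000163), and how it was averaged is not stated. Coordinates are left out because the files state no build. RefSeq assembly R64 gave gene names for 5756 of 6256 systematic names and the gene order.

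Mean signals were corrected with normexp (offset 50) and normalised by loess within arrays with limma 3.58.1 (R 4.3.3); the 526 control spots had weight 0 in the loess. Outlier spots were left out (6.47% and 8.92% of gene spots), spots of a gene averaged, and 5641 genes that exceeded background on each array in green, red or both were tested against 0, with Benjamini-Hochberg adjustment at 0.05. The fit was also run on simulated data, with noise drawn separately for each array and no fixed dye effect on a probe. That run therefore does not bear on the missing dye swap or on arrays that may be technical repeats. Signals are compared within a probe, never between probes, and 2 arrays limit the precision.

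The members and lists were chosen with earlier results of these data known. Named are all members, PHO92, AFT1, AFT2, up to 4 called genes per list with 1 sign on both arrays and the largest absolute ratio, and neighbours past 0.5; other names, among them those on chromosome XV, the other neighbours of ARN2, strain markers and ENT3, were chosen after their values were seen. With 2 arrays of 1 comparison no genes could be named for a like profile. No sequences are printed. Alternatives varied the normalisation, background, starting values, outlier and signal filters, saturation, arrays and variance prior.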

Additional observations from a re-analysis of the deposited data

How the results depend on the processing

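Under 9 planned settings (median centring, normexp without offset, no background subtraction, the scanner software's log ratios, the series table, outlier spots kept, no low-signal filter, both channels above background, saturated spots left out) and with an intensity trend in the variance prior, chosen after seeing the data, 7 siderophore uptake genes were called higher and 2 lower each time. The members' log2 ratios were unchanged by the outlier, signal and saturation settings and by the variance trend. None of their spots was marked as an outlier or saturated, and all passed the background test. These settings could therefore change only the errors and adjusted p-values of the members. Calls were common over all genes as well, with 36.4% higher and 36.7% lower as reported. The number of genes called in either direction ran from 3874 of 5641 with the series table to 4546 of 6146 with outlier spots kept. The median of the siderophore uptake genes lay between 0.28 and 0.34. It was 0.24 without array 1 and 0.32 without array 2, where no test is possible. The counts fell to 1 higher and 0 lower both with an added limit of 0.5 on the absolute log2 ratio and with scanner p under 0.01 in every usable spot, which ask more of each gene. FIT1 was called in none of the 10 settings. The call of PHO92 was lost with the scanner software's log ratios (adjusted p = 0.0879) and with the series table (0.0813), and that of AFT2 with both as well (0.0581 and 0.0622). Higher calls among iron-sulphur and haem enzymes were 1 as reported, 2 after median centring, without background subtraction, with both channels above background, without saturated spots and with the variance trend, and 4 with outlier spots kept; the cause was not tested. Lower calls among these enzymes were 7 as reported, 9 after median centring, 8 with outlier spots kept and 6 with the scanner software's log ratios. Higher calls among the other low-iron regulon genes were 10 as reported and ran from 9 to 13 over the settings. Each array holds both strains, so the ratio tested already pairs them, and no separate paired analysis was run.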

Other observations

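Genes that sort the siderophore transporters between the Golgi, endosomes and the cell surface were listed with the uptake genes. Of 5 listed genes 4 were tested, with 2 called higher and 1 lower, beside 36.4% and 36.7% of all genes. GGA1, a clathrin adaptor of the Golgi, was higher by 0.23 ± 0.04 (SE, n = 2, limma adjusted p = 4.61e-05), and so was RSP5, the ubiquitin ligase that directs plasma membrane proteins to the vacuole, by 0.17 ± 0.04. GGA2, the close relative of GGA1, was lower (-0.11 ± 0.04, limma adjusted p = 0.00888). ENT3, an epsin-like adaptor named after its value was seen, had 0.06 ± 0.03 and did not pass, and BSD2 was not tested because of outlier spots.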
